A study of Macaca mulatta with 6 samples.

Results

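TMEM135, a multi-pass membrane protein of peroxisomes that is also known as PMP52, was followed in luteal cells of the rhesus macaque treated with an agonist of the liver X receptors (LXRs). The gene was represented by every probe set whose annotated symbol is TMEM135, which was 1 of the 52766 probe sets tested (MmugDNA.1560.1.S1_at), and is 1 of 14132 genes with a name on the array. Its identifier carries none of the marks that the array maker gives to probe sets that can match several transcripts. A further 27449 probe sets had no symbol, and whether any of them reads TMEM135 is not known here. TMEM135 was chosen with its response to treatment in these arrays known, so that response is described below without a test.

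The cells came from the corpus luteum, the progesterone-secreting ovarian gland left by the ovulated follicle, 12 days past the luteinizing hormone surge. Dispersed cells went onto fibronectin-coated plates in serum-free medium, and treatment ran for the first 24 h of culture. One group of 3 arrays received the vehicle, 0.1% dimethyl sulfoxide (DMSO), and the other group of 3 received 1 µM T0901317, a synthetic LXR agonist. Each treated array has a vehicle partner of the same replicate number, and the design text calls the replicates paired and biological. The labels do not state that both cultures of a pair share an animal, so p-values measure the spread between these samples only. Nor do they state a genotype, strain or animal age. By its title the series asks which genes LXR acts on in luteal cells.

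LXRs are nuclear receptors that bind oxidised cholesterol and, paired with a retinoid X receptor, switch on genes of cholesterol export, lipoprotein handling and fatty acid synthesis. Peroxisomes shorten very long chain and branched fatty acids, make the first intermediates of ether lipids, and break down hydrogen peroxide. Work in mice and in cultured cells has linked TMEM135 to LXR activation, to fatty acid breakdown in peroxisomes, to the balance of fusion and fission of mitochondria, and to movement of cholesterol out of lysosomes. In a steroid-producing cell such as the luteal cell, cholesterol delivered to mitochondria is the starting material of progesterone.

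TMEM135 was higher with T0901317 in all 3 pairs. On the log2 scale of the deposited values, replicates 1, 2 and 3 with vehicle had levels of 7.38, 7.17 and 5.94. The treated arrays had 8.45, 8.19 and 7.90. The groups did not overlap: the lowest treated array lay 0.52 above the highest vehicle array. Among all 14132 named genes, each read by its probe set of highest mean, 0.934% had every treated array above every vehicle array, and 9.43% were higher in all 3 pairs. As TMEM135 was chosen on this contrast, nothing is read from its place among them. All 6 levels lay above 4.63, a reference for dim signal taken as the 95th percentile of the mean levels of the Bacillus control probe sets.

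The vehicle mean was 6.83 ± 0.78 (SD, n = 3) and the treated mean 8.18 ± 0.27 (SD, n = 3). The difference, T0901317 minus DMSO, was 1.35 ± 0.16 on the log2 scale (limma's SE from a fit with the replicate as a block, n = 3 pairs), or 2.55-fold. That SE rests on the spread pooled over all probe sets; the 3 pair differences themselves had an SD of 0.54. In the order of changes from highest to lowest TMEM135 stood at rank 5 of 14132 named genes. Just above it were SREBF1, which drives transcription of fatty acid synthesis genes (1.49 ± 0.14), and the cytokine IL18 (1.35 ± 0.17). Just below it were the glycogen phosphorylase PYGL (1.29 ± 0.16) and NR1H3, which encodes LXR alpha (1.24 ± 0.11). IL18, TMEM135, PYGL and NR1H3 differed from each other by less than the SE of any of them.

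**Figure D1:**
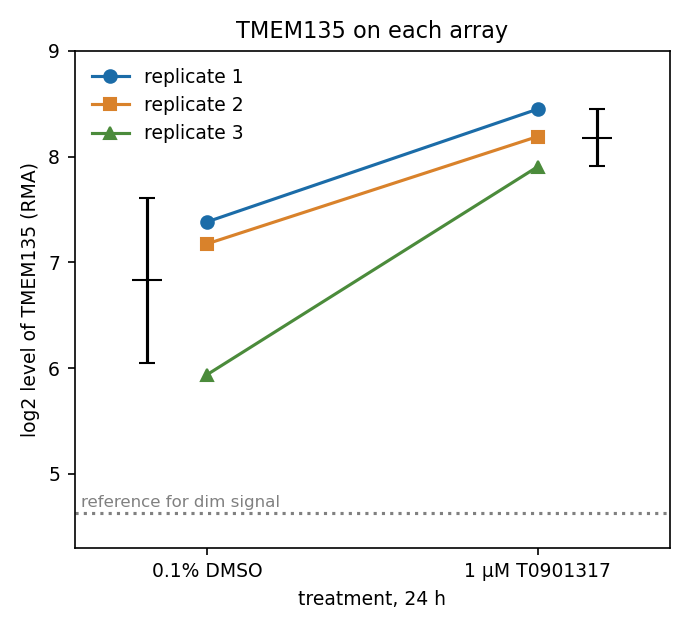
Log2 level of TMEM135 (vertical axis) on the 6 arrays by treatment (horizontal axis); lines join the arrays of 1 replicate number, and black bars are group means with the SD over 3 arrays. All 3 lines go up, from 7.38, 7.17 and 5.94 to 8.45, 8.19 and 7.90, and the treated levels lie closer together than the vehicle levels.

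The size of the difference was not the same in the 3 pairs. It was 1.07 in pair 1 and 1.01 in pair 2, or 2.09-fold and 2.02-fold, and 1.97 in pair 3, or 3.91-fold. Pairs 1 and 2 were thus close to each other and pair 3 stood apart. Without replicate 3 the fitted difference was 1.04 ± 0.13, and without replicates 1 and 2 in turn it was 1.49 and 1.52. The SD of the pair differences was larger than that of 99.3% of named genes, whose median SD was 0.15. Such a spread was not particular to TMEM135 among genes with a rise of similar size. The SD was 0.49 for SREBF1, 0.53 for IL18 and 0.57 for PYGL, but 0.21 for NR1H3.

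In pair 3 the vehicle array stood further from its fellows than the treated array did. The vehicle array of replicate 3 lay 1.34 below the mean of the other 2 vehicle arrays, a drop exceeded by 2.31% of named genes. The treated array of replicate 3 lay 0.42 below the mean of the other 2 treated arrays, a drop exceeded by 18.6% of named genes. Over all named genes the median of these differences was -0.03 with vehicle and 0.02 with T0901317. The order of replicates was the same with both treatments, with replicate 1 highest and replicate 3 lowest. Replicate 3 was singled out after its values were seen.

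Differences between replicates did not enter the choice of TMEM135 and could be tested. The means of the pairs were 7.91, 7.68 and 6.92, a range of 1.00. Limma's F test of the replicate terms gave an adjusted p of 0.0052 over all probe sets. The same test called 40.2% of probe sets and 46.2% of named genes, so a difference between replicates was common in these arrays and not a mark of this gene. Without replicate 3 the adjusted p was 0.26, so the call rested on replicate 3.

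RNA quality differed most in the same replicate. The measure used was the signal at the 3′ end minus that at the 5′ end, averaged over actin, GAPDH and EF1a control probe sets, which grows when RNA is broken or copied incompletely. In replicate 3 it was 1.89 with vehicle and 1.30 with T0901317. In the other 4 arrays it ran from 0.69 to 1.00. Within pairs the measure changed by 0.16, -0.08 and -0.59 in pairs 1, 2 and 3, while TMEM135 changed by 1.07, 1.01 and 1.97. The vehicle array with the largest 3′ to 5′ difference was thus also the array with the lowest TMEM135. With this measure as a covariate beside the block, the fitted difference of TMEM135 was 1.13 ± 0.11, from a fit with few residual degrees of freedom. Where the probes lie along the transcript is not known here.

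**Figure D2:**
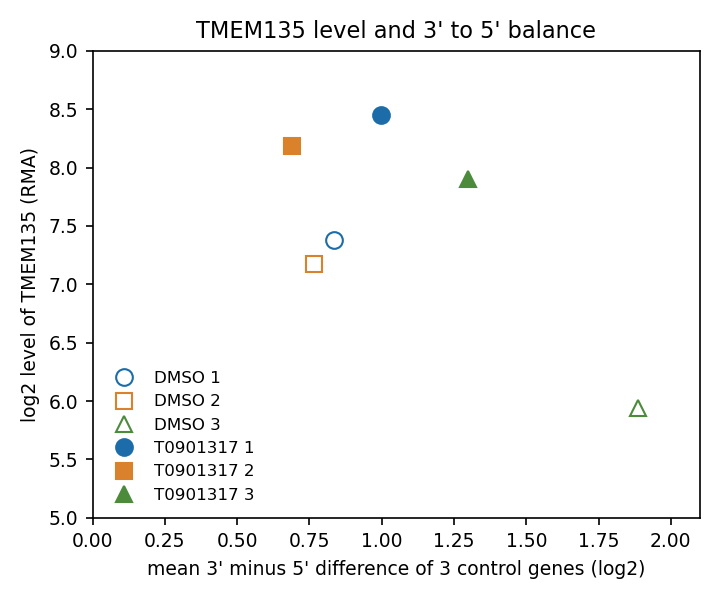
Log2 level of TMEM135 (vertical axis) against the mean 3′ minus 5′ difference of actin, GAPDH and EF1a controls on the log2 scale (horizontal axis) for each of the 6 arrays; open symbols are DMSO, filled symbols T0901317, and 1 shape stands for 1 replicate. The vehicle array of replicate 3 lies apart at 1.89 and 5.94, while the other 5 arrays lie between 0.69 and 1.30 with TMEM135 from 7.17 to 8.45.

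The receptors themselves behaved differently over the replicates. NR1H3 had vehicle levels of 5.98, 7.68 and 7.42 in replicates 1, 2 and 3 and treated levels of 7.40, 8.70 and 8.71. Its lowest array was thus the vehicle array of replicate 1, where TMEM135 had its highest vehicle level. NR1H3 rose by 1.24 ± 0.11 (limma adjusted p = 0.0011), by 1.42, 1.02 and 1.29 in the pairs. NR1H2, which encodes LXR beta, had vehicle levels of 7.91, 8.04 and 7.57 and treated levels of 7.82, 7.97 and 7.51. Its difference was -0.07 ± 0.10 (limma adjusted p = 1.00), and each treated array lay slightly below its partner.

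Of 27 listed LXR targets other than TMEM135, 20 were measured under a name and 19 had a mean above the reference for dim signal. Of the 20, 9 rose, 0 fell and 11 did not pass in limma's fit, at an adjusted p under 0.05 over all probe sets; 10 had an unadjusted p under 0.05, against 3.73% of all named genes. In that fit 0.113% of named genes were called higher and 0.0637% lower. The list was drawn up with earlier results of these arrays known, so its count is not independent evidence. The median change of its members was 0.33, against -0.02 over all named genes, and 18 of 20 lay above 0. Without replicate 1, 5 of the 20 were called, and without the replicate block limma called 0, with 5 at an unadjusted p under 0.05.

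The called targets cover several arms of LXR action. MYLIP, a ubiquitin ligase that removes lipoprotein receptors, rose by 2.39 ± 0.11, and LPCAT3, an enzyme of phospholipid remodelling, by 1.07 ± 0.09. Among lipogenic genes SREBF1 rose by 1.49 ± 0.14, ACACA, which makes malonyl-CoA, by 0.84 ± 0.10 and the fatty acid synthase FASN by 0.63 ± 0.09. The lipoprotein components APOC4 and APOE rose by 1.02 ± 0.14 and 0.60 ± 0.07. RNF145, a ligase that marks endoplasmic reticulum proteins with ubiquitin, rose by 0.47 ± 0.07. Limma's adjusted p for these 8 genes and NR1H3 lay at or below 0.036. Only MYLIP and SREBF1 had a larger mean change than TMEM135 among the 20. The cholesterol exporter ABCA1 had 0.47 ± 0.13 (limma adjusted p = 0.88). The gene number that the annotation gives its probe set is not in the gene table, so its identity is uncertain.

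Probe sets of a gene did not always move together. All 3 probe sets of MYLIP and all 3 of APOE had changes of 1.05 to 2.39 and of 0.60 to 0.70. The dimmer second probe sets of ACACA and RNF145 had 0.18 and -0.03, and the dimmest of SREBF1 had 0.23. For TMEM135 no second probe set could serve as such a check.

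Most named genes called higher had their largest difference in pair 3, some by a small margin. Of the 16 named genes called higher, 14 had their largest difference in pair 3. TMEM135 is counted among them as a description only, since it was chosen on this contrast. Over all named genes the share with the highest pair difference in pair 3 was 44.7%. The 16 genes were called on the mean of the same pair differences, so these shares are not like for like. The excess of pair 3 over the mean of pairs 1 and 2 was 0.93 for TMEM135. It was 1.02 for ADAMDEC1, a secreted metalloprotease, and 0.84 for PYGL. It was only 0.07 for NR1H3, 0.08 for LPCAT3 and 0.10 for ACACA. For SREBF1 it was 0.68, with pair differences of 1.55, 0.97 and 1.94. For MYLIP it was 0.38, and here the vehicle array of replicate 3 was no lower than its fellows, by 0.27 above their mean. The part of RNA quality in the excess of pair 3 was not tested.

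**Figure D3:**
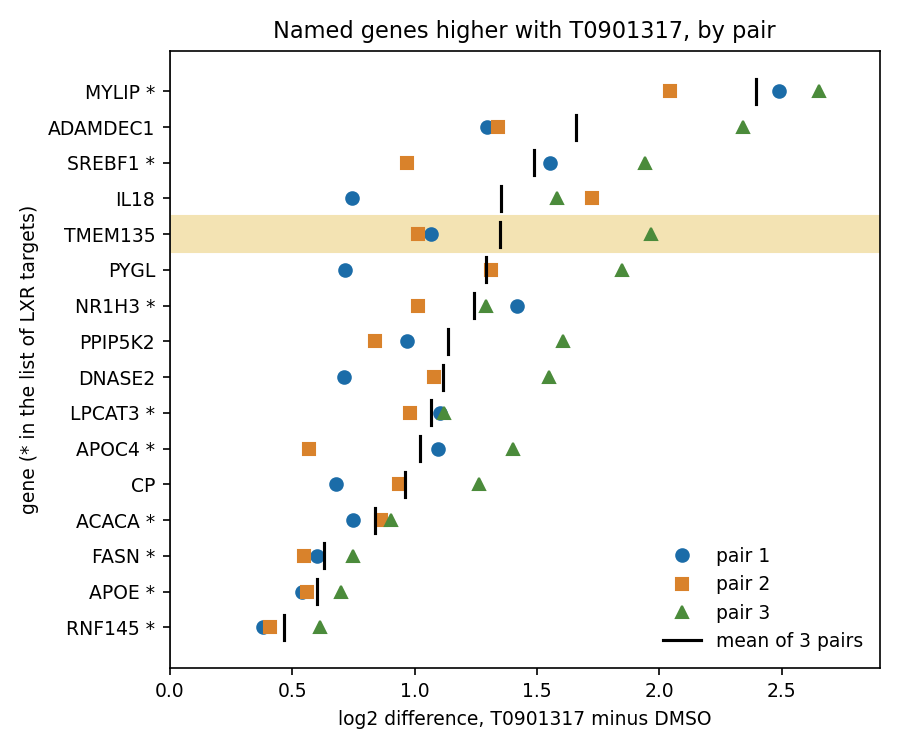
Log2 difference between T0901317 and DMSO in each pair (horizontal axis) for the 16 named genes called higher (vertical axis); symbols are pairs and black bars their mean. TMEM135, shaded, has 1.07 and 1.01 in pairs 1 and 2 and 1.97 in pair 3, and 14 of the 16 genes have their rightmost symbol in pair 3. TMEM135 was chosen on this contrast, so its place among these genes is not a test.

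The genes most like TMEM135 over the arrays were looked for among 12263 named genes with a mean above the reference for dim signal. By Pearson correlation of levels over the 6 arrays, which share their pairing and treatment, the closest was PPIP5K2, an inositol pyrophosphate kinase (r = 0.991). Its vehicle levels were 7.88, 7.53 and 6.54 and its treated levels 8.85, 8.37 and 8.14, the same order of arrays within each group as for TMEM135. PPIP5K2 was also nearest by its 3 pair differences, 0.97, 0.84 and 1.60, with a root mean square distance of 0.24. Next by correlation came RNF145 (r = 0.983), the secreted laminin-related protein NTN4 (r = 0.980), RTN4RL2, a receptor of the Nogo family (r = 0.957), the monooxygenase CYP1B1 (r = 0.955) and LPCAT3 (r = 0.949). These values describe 6 arrays and carry no test. Each gene was read by its probe set of highest mean only. Of the like genes, the second probe set of RNF145 and the dimmest of SREBF1 had changes far below that of TMEM135, as given above. LPCAT3 and APOC4 had only 1 probe set each. Whether other probe sets of PPIP5K2, PYGL or the remaining like genes resemble TMEM135 was not examined here.

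The like genes differed in size of change. NTN4 had 0.88 ± 0.19 and pair differences of 0.64, 0.41 and 1.60 (limma adjusted p = 0.27). CYP1B1 had 0.36 ± 0.06 (adjusted p = 0.10 in limma) and RTN4RL2 0.33 ± 0.12 (adjusted p = 1.00 in limma), so these 3 did not pass. By distance between pair differences the nearest after PPIP5K2 were PYGL (0.27), SREBF1 (0.28), ADAMDEC1 (0.32), DNASE2, a lysosomal nuclease (0.32), and APOC4 (0.42). Of these, DNASE2 and APOC4 had correlations of only 0.42 and 0.40 with TMEM135 over the arrays; DNASE2, for one, was highest in replicate 2 in both groups.

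Other peroxisomal genes had changes between -0.36 and 0.19, against 1.35 for TMEM135. Of 79 genes in 2 lists, one of peroxisome assembly and division and one of peroxisomal enzymes and transporters, 49 were measured under a name. In limma's fit 0 rose and 0 fell over all probe sets, and 1 had an unadjusted p under 0.05. Of all named genes 0.177% were called and 3.73% had an unadjusted p under 0.05, so a count of 0 in lists of this size, here and in the 3 lists that follow, is near the background and is not a result about their members. The 49 genes had a median change of -0.02, equal to that of all named genes at this precision, and 20 lay above 0. Of the 49 changes 48 were within 0.25 of 0 on the log2 scale. All 87 probe sets of these genes gave the same range, with 0 called and 2 at an unadjusted p under 0.05.

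Among 14 measured genes of peroxisome assembly and division, the highest value was that of PEX16, which helps to insert peroxisomal membrane proteins, at 0.19 ± 0.11. Its second probe set had -0.0049. PEX5, the import receptor for matrix proteins, had vehicle levels of 7.34, 6.99 and 6.79 and treated levels of 7.15, 7.03 and 6.83, a difference of -0.04 ± 0.11. PEX11A, which promotes peroxisome growth and division, had 0.04 ± 0.14 at levels of 5.26 to 5.67. PEX7, the import receptor for a further class of matrix proteins, and PEX10, a ubiquitin ligase of import, had the lowest values, -0.15 ± 0.11 and -0.14 ± 0.12. Limma's adjusted p was 1.00 for all of these.

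Among 35 measured peroxisomal enzymes and transporters, 31 had a mean above the reference for dim signal. HSD17B4, which carries out a middle pair of steps of peroxisomal fatty acid oxidation, had vehicle levels of 9.07, 9.55 and 9.04 and treated levels of 8.91, 9.56 and 9.05. Its difference was -0.04 ± 0.09, and the arrays of a pair lay close together. Catalase (CAT), which breaks down hydrogen peroxide, had 0.09 ± 0.14, with 0.26, -0.25 and 0.25 in the pairs. EHHADH, a further enzyme of fatty acid oxidation, had -0.10 ± 0.15 but a mean below the reference for dim signal. The ether lipid enzymes GNPAT and AGPS had -0.11 ± 0.09 and -0.02 ± 0.11, and PHYH, which starts the breakdown of phytanic acid, had -0.13 ± 0.12.

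The value furthest from 0 in both peroxisomal lists was that of SLC27A2, an acyl-CoA synthetase for very long chain fatty acids. Its vehicle levels were 7.11, 5.11 and 7.50 and its treated levels 6.34, 5.10 and 7.19. The difference was -0.36 ± 0.15, below 0 in all 3 pairs (limma adjusted p = 1.00). Within the list of enzymes and transporters the next furthest from 0 were ACOT4, an acyl-CoA thioesterase, at 0.18 ± 0.13 with a mean below the reference for dim signal, and the membrane protein MPV17 at -0.17 ± 0.10.

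**Figure D4:**
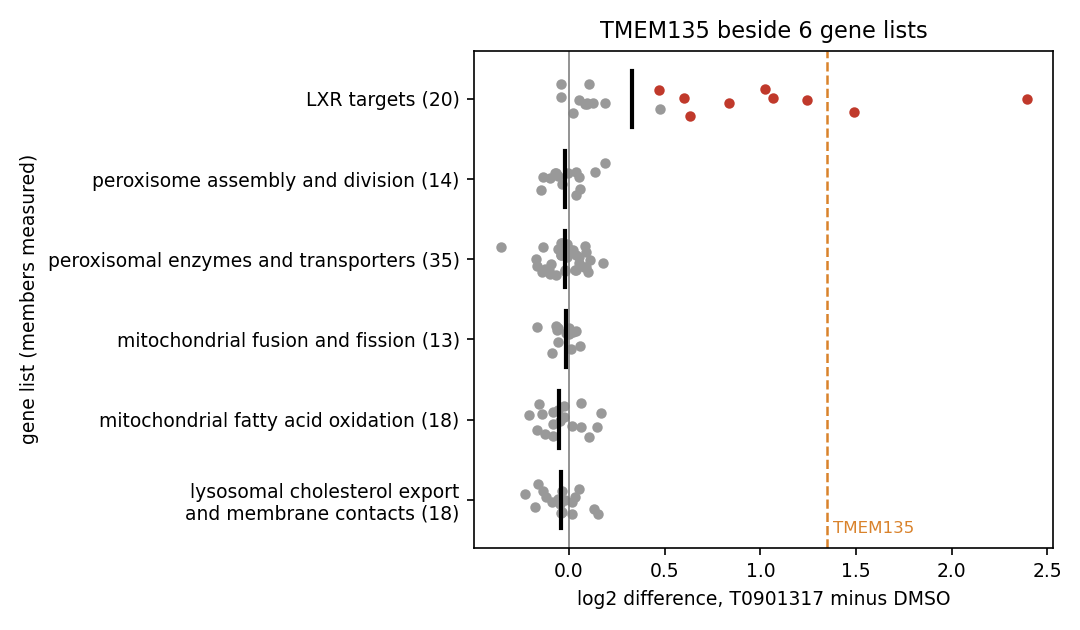
Horizontal axis: log2 difference, T0901317 minus DMSO; vertical axis: 6 gene lists, each with its count of measured members, which are the points; red points passed limma's threshold over all probe sets and black bars are medians. The dashed line marks TMEM135 at 1.35; 9 red points stand in the LXR target list and none in the other 5 lists, whose points lie between -0.36 and 0.19.

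Genes of mitochondrial shape formed a further list. Of 13 measured genes of mitochondrial fusion and fission, 0 rose and 0 fell in limma's fit, none had an unadjusted p under 0.05, and the median change was -0.01. The fission receptors FIS1 and MFF, which act on peroxisomes as well, had 0.06 ± 0.09 and 0.04 ± 0.10. OPA1, which fuses the inner membrane, had -0.07 ± 0.09, and the largest values were those of OPA3 (-0.17 ± 0.12) and MIEF1 (-0.09 ± 0.09), a recruiter of the fission machinery. MFF had vehicle levels of 8.26, 8.43 and 7.23 and so shared the low vehicle array of replicate 3, but its treated level there was 7.39, close to its partner. DNM1L, MFN1 and MFN2 were not analysed here.

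Of 18 measured genes of mitochondrial fatty acid oxidation, 0 passed in limma's fit in either direction, 1 had an unadjusted p under 0.05, and the median was -0.05. ACADVL, the first dehydrogenase for very long chains, had vehicle levels of 9.69, 9.98 and 9.77 and treated levels of 9.40, 9.77 and 9.64. The difference was -0.21 ± 0.08, below 0 in all 3 pairs (limma adjusted p = 1.00). CPT1A, which admits long chains to mitochondria, had -0.17 ± 0.11, with -0.43, -0.25 and 0.18 in the pairs. Without replicate 3 its difference was -0.34 ± 0.08 and passed (limma adjusted p = 0.0095). That fit of 2 pairs took its SE from the spread pooled over probe sets. It called 328 probe sets, against 45 with all pairs, so no weight is put on this pass. A second probe set of CPT1A is not described here. HADHA and HADHB, the subunits of 1 enzyme complex, had -0.16 ± 0.09 and 0.15 ± 0.21. HADHB had vehicle levels of 8.95, 9.76 and 7.31 and treated levels of 8.49, 9.62 and 8.35. As with TMEM135 its vehicle array of replicate 3 was low, but in pairs 1 and 2 HADHB was lower with T0901317, by -0.46 and -0.14. The third of the largest values was UCP3, a carrier of the inner membrane, at 0.17 ± 0.15.

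Of 18 measured genes of lysosomal cholesterol export and membrane contacts, again 0 passed in limma's fit, with 1 at an unadjusted p under 0.05 and a median of -0.04. The lysosomal acid lipase LIPA had vehicle levels of 10.5, 11.2 and 11.7 and treated levels of 10.1, 11.1 and 11.5. Its difference was -0.23 ± 0.07, below 0 in all 3 pairs (limma adjusted p = 1.00). NPC1 and NPC2, which pass cholesterol out of the lysosome, had 0.05 ± 0.09 and -0.09 ± 0.06. The other large values were ESYT2, a tether of the endoplasmic reticulum (-0.18 ± 0.09), and the sterol carrier STARD4 (-0.16 ± 0.10).

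Neighbours of TMEM135 on the chromosome were taken from a RefSeq gene table of the assembly T2T-MMU8v2.0, used for gene order only. Of the 3 named protein-coding genes on each side, ME3 and FZD4 on one side and RAB38 on the other were measured. FZD4, a Wnt receptor, had vehicle levels of 7.72, 7.78 and 6.75 and treated levels of 7.58, 7.80 and 6.76. It was thus low in both arrays of replicate 3, and its difference was -0.04 ± 0.10. ME3, a mitochondrial malic enzyme, had 0.04 ± 0.12, and the GTPase RAB38 had -0.27 ± 0.17 with 0.28, -0.41 and -0.68 in the pairs. The second, dimmer probe sets of FZD4 and ME3 had 0.02 and -0.03. None of these 5 probe sets passed (limma adjusted p = 1.00 for each).

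The cultures held more than steroid-producing cells. In bulk RNA, fewer cells of a type and less RNA per cell cannot be told apart. Of 11 markers of steroidogenic luteal cells 8 were measured, all with a mean above the reference for dim signal. STAR, which carries cholesterol into mitochondria, had vehicle levels of 11.0, 11.5 and 10.5 and a difference of -0.09 ± 0.08, and HSD3B2, which makes progesterone, had 7.41, 6.65 and 5.94 and -0.18 ± 0.12. CYP11A1 and LHCGR were not analysed here. HSD3B2 and a further marker, FDXR, stood in the same order of replicates as TMEM135 in both groups, highest in replicate 1 and lowest in replicate 3. Neither was higher in any treated array than in its partner. The other measured markers of this list did not keep that order in both groups. STAR, for example, was highest in replicate 2 in both.

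Markers of other cell types were present on every array. The median level of 10 macrophage markers with vehicle was 8.13, 9.28 and 9.08 for replicates 1, 2 and 3, and with T0901317 it was 7.91, 9.37 and 9.09. In replicate 1, where this median was lowest, TMEM135 was highest in both groups. In replicate 3, where TMEM135 was lowest, the macrophage median was not highest, but single markers differed. CD68, AIF1, TYROBP, C1QA and C1QB were highest there in both groups, and CSF1R with vehicle only. CD14, MSR1, MRC1 and LYZ were highest there in neither group. Medians of luteal and pericyte markers were highest in replicate 1 in both groups, and those of blood cell markers lowest. The luteal medians kept the full replicate order of TMEM135 in both groups, though replicates 2 and 3 with vehicle were close, at 6.81 and 6.80. The blood cell medians stood in the reverse order in both groups. The endothelial, fibroblast and T and NK cell lists did not keep replicate 1 at an end in both groups, but they did so for replicate 3. There the endothelial and fibroblast medians were lowest in both groups, and the T and NK cell median was highest. The part of cell makeup in the level of TMEM135 was not tested. All 10 macrophage markers had means above the reference for dim signal, while KDR of the endothelial list, CD7 of the T and NK cell list, and PPBP and S100A12 of the blood cell list lay below it. The medians of 11 endothelial markers ran from 6.40 to 7.11 with vehicle and from 6.64 to 7.29 with T0901317. For 6 markers of T and NK cells they ran from 8.55 to 10.0 with vehicle and from 8.43 to 9.91 with T0901317. Those of 4 pericyte and smooth muscle markers, 9 fibroblast markers and 8 markers of blood cells ran over all arrays from 7.79 to 8.73, from 7.00 to 8.49 and from 5.27 to 6.29. The median changes with treatment were -0.11 for luteal, 0.20 for endothelial, -0.02 for macrophage, -0.24 for pericyte, -0.04 for fibroblast, -0.11 for T and NK cell and -0.15 for blood cell markers. No marker passed limma's threshold over all probe sets, of which 0.0853% were called, 0.0606% higher and 0.0246% lower. No list of cell type markers had a member with a change as large as that of TMEM135.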

How the data were processed

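Gene expression was measured on 6 arrays, 3 per group. The deposited log2 values were made by the authors with RMA, per the submitters' processing notes; no version of RMA is named there. Array medians ran from 5.54 to 5.71, so the arrays were not fully equal and their small number limits precision. Of 52865 probe sets, 99 control probe sets were left out. Symbols came from the supplied platform annotation: 24956 probe sets had 1 symbol, 361 several and 27449 none, and 24616 gene numbers were found in the RefSeq table with 0 symbols changed. A gene was read by its probe set of highest mean.

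T0901317 minus DMSO was fitted with limma 3.58.1 in R 4.3.3, with replicate number as a blocking factor and eBayes trended on mean level; p-values are two-sided and Benjamini-Hochberg adjusted over 52766 probe sets. The pairing comes from the design text; deviations from group means correlated at 0.66, 0.81 and 0.83 in same-numbered arrays. The fit was tested on simulated data. Their noise was normal, independent between arrays and set to the variances of limma's own fit, without differences in RNA quality. It recovered 29 of 67 changes of 0.5 on the log2 scale, 67 of 67 changes of 1 and 66 of 66 changes of 2. A change of 0.5 or less can thus be missed, and in real arrays larger changes can be missed too. NTN4, with 0.88, did not pass there (limma adjusted p = 0.27). Alternatives covered the block, scaling between arrays, a filter on dim probe sets, the variance trend, RNA quality, averaging of probe sets and each replicate left out. With 3 pairs the smallest two-sided p of an exact sign-flip test is 0.25.

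TMEM135, the lists and the named genes (fixed names, members past the threshold, the 3 largest changes per pathway list, likeness, neighbours) were chosen with earlier results of these data known. IL18, PYGL, ADAMDEC1 and the genes named for their probe sets or for pair 3 were added after their values were seen.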

Additional observations from a re-analysis of the deposited data

How the results depend on the processing

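Over 10 alternative settings the difference of TMEM135 stayed above 0, from 1.04 without replicate 3 to 1.52 without replicate 2, with 1.38 after cyclic loess and 1.33 with arrays centred on their medians. With no replicate block it was 1.35 with an SE of 0.39. The counts of calls moved much more. In limma's fit 45 probe sets were called, 32 of them higher; 0 were called with no replicate block (143 at an unadjusted p under 0.05), 27 after cyclic loess (24 of them higher), 11 without the trend, 206 with the 3′ minus 5′ covariate, and 35 to 328 when 1 replicate was left out, the highest without replicate 3 and 72 without replicate 2. Of LXR targets 9 were called, 0 with no replicate block, 3 without the trend and 5 to 9 with 1 replicate left out. In fatty acid oxidation 0 to 1 were called with 1 replicate left out. Differences between replicates were called for 21188 probe sets, and for 9045 to 21815 with 1 replicate left out. The adjusted p of TMEM135 in that test ran from 2.6e-04 to 0.26 with 1 replicate left out and was 0.031 after cyclic loess. The cause of these shifts was not tested. In the peroxisomal, fusion and fission, and lysosomal lists 0 genes were called under each alternative run.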
